A study of Mus musculus with 18 samples.

Results

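Translational efficiency (TE) under Torin1 was compared with TE in WT cells, gene by gene, in mouse NIH3T3 cells. TE is the amount of ribosome-protected fragments (RPF) of a gene relative to its mRNA, and a TE change is the log2 change of RPF minus the log2 change of mRNA. NIH3T3 is an established, immortalised line of mouse fibroblasts. Torin1 cells were WT cells treated with Torin1 at 200 nM, with 3 h stated as the time of treatment; Torin1 blocks the ATP site of the mTOR kinase and so inhibits both mTOR complexes. WT cells were the same line given vehicle; both groups carry the same unedited genotype and were grown in serum. Each group had 3 RPF and 3 mRNA libraries, which makes 12 of the 18 libraries of the series; the other 6, from cells edited at Mtor, enter no result here except where said. Genes were kept when every Torin1 and WT mRNA library had at least 200 reads and every WT RPF library at least 100. Of 24035 genes, 1421 (5.91%) were kept: 7169 met the RPF minimum but 1451 the mRNA minimum. The genes just inside the mRNA minimum were Nolc1, U2af1 and Hdgfrp2, with 204, 204 and 207 reads in their lowest library, and those just outside were Pank3, Hmgb2 and Timm13, with 199, 198 and 198. The RPF minimum was set on WT libraries alone, and 24 kept genes had fewer than 100 reads in a Torin1 RPF library; none of these 24 is among the genes called below.

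The mTOR kinase, within mTOR complex 1, passes on the supply of nutrients and growth factors to protein synthesis. It phosphorylates the 4E-BP proteins, which otherwise bind the cap-binding factor eIF4E, and it acts through LARP1, a protein that binds the 5′ end of a class of mRNAs. That class, the TOP mRNAs, starts with a C followed by a run of pyrimidines (a terminal oligopyrimidine tract) and encodes ribosomal proteins, elongation factors and other parts of the translation machinery.

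Gene reads, in M, were 16.8, 19.95 and 31.07 in the Torin1 RPF libraries and 13.28, 42.82 and 13.04 in the WT RPF libraries, and 12.06, 51.74 and 38.34 in the Torin1 mRNA libraries and 26.69, 94.3 and 56.34 in the WT mRNA libraries. The kept genes took 40.2%, 54.3% and 46.9% of gene reads in the Torin1 RPF libraries and 56.8%, 63.2% and 61.7% in the WT RPF libraries. Every Torin1 RPF library thus had a smaller share than every WT RPF library, and scaling was done on the kept genes. In mRNA the share was 64.2% to 68.5%. Tmem38b, which was not kept, held 26.9%, 0.09% and 12.9% of gene reads in the Torin1 RPF libraries. In the WT RPF libraries it held 9.43%, 0.04% and 1.22%, and in each of these mRNA libraries at most 0.0078%. Of the 14 fibroblast markers checked, 10 were among the kept genes; their summed share of mRNA reads was 16300 to 22500 ppm in Torin1 libraries and 13400 to 16600 ppm in WT libraries. No marker of adipocytes, skeletal muscle, epithelium, leukocytes and endothelium, or neurons and glia was kept, and each of these lists summed to at most 87.5 ppm of mRNA reads in any library, with the epithelial list and the leukocyte and endothelial list at 0 reads in all 6. One library stood apart: the Torin1 mRNA library of replicate 3 correlated at r = 0.997 across the kept genes (log2 scale) with an mRNA library of the Mtor-edited cells, replicate 2, while all other pairs of mRNA libraries lay between 0.28 and 0.691. The pair differed by more than sampling noise (chi-square per degree of freedom 8.67, against 440.9 in the next closest pair). Which cells that library came from cannot be told from the files; it is used as labelled, and the calls, list medians and named genes were also computed without it. Nothing in the labels ties replicates to separate cultures, and the p-values below measure the spread among libraries, which could be technical only.

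TE fell in 44 of the 1421 genes under Torin1 (3.1%) and rose in 2 (0.141%), by edgeR's quasi-likelihood test of the interaction over 12 libraries with Benjamini-Hochberg adjustment over the kept genes at 0.05. The genes that fell were the machinery of translation for the most part: 31 ribosomal proteins, the elongation factors Eef1a1, Eef2, Eef1g and Eef1b2, the ribosome-bound scaffold Gnb2l1, the TOP mRNA Tpt1 and the intermediate filament Vim. These 38 came from 106 kept genes on 4 lists of translation and TOP genes, whose median log2 TE change was -1.58. The lists were chosen with earlier results of these data known, so the contrast with other genes was not tested. Of the 1315 other genes, 6 fell, and the median of the 1315 was 0.12. The 6 were the chaperones Hspa8 and Hsp90ab1, the glycolytic enzymes Gapdh and Gpi1, the mitochondrial outer-membrane channel Vdac1 and the RNA-binding protein Ybx1. The log2 TE change of the 44 ran from -3.20 to -1.20 with a median of -2.10, beside a median of 0.05 and quartiles of -0.68 and 0.71 over all kept genes. An unadjusted p under 0.05 was reached by 174 genes, 121 lower and 53 higher. The count depended on the genes and libraries that shared the fit. With edgeR's filterByExpr in both assays in place of the read minimums, 5909 genes were tested and 8 passed (7 lower, 4 of them among the 44). With the minimums halved, 1536 genes were tested and 45 fell, all 44 among them. When the edited cells' libraries were added 2 genes passed, and 19 to 28 passed when any 1 RPF library was left out. The number of higher genes was 11 with DESeq2, 6 without Torin1 mRNA replicate 1, 5 without Torin1 mRNA replicate 2, 4 without WT mRNA replicate 1, and 0 without any 1 RPF library. With the replicate number as a block within each assay, 39 genes fell, 36 of them among the 44, and 1 rose.

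**Figure D1:**
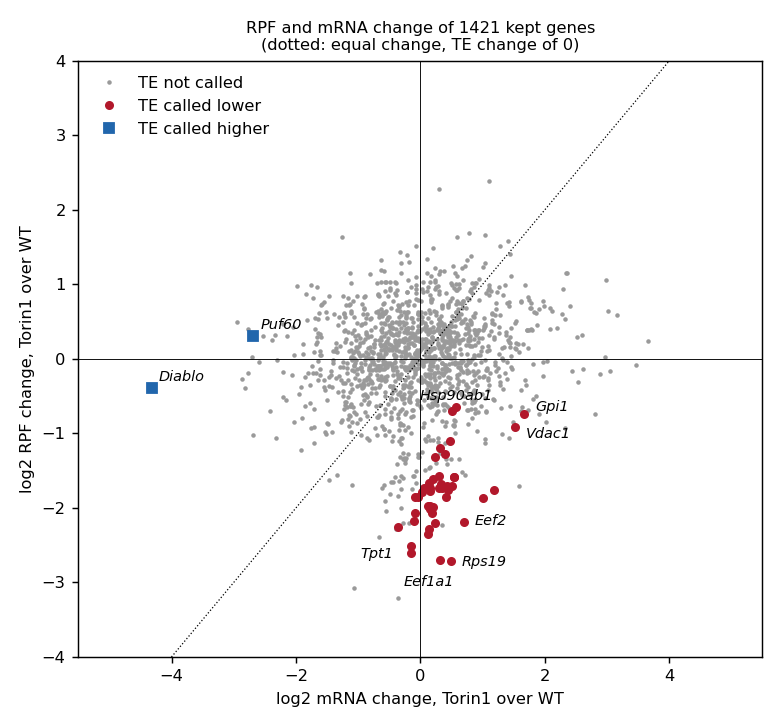
Change in RPF (vertical axis) against change in mRNA (horizontal axis), both log2 of Torin1 over WT, for the 1421 kept genes; red circles mark the 44 genes with lower TE, blue squares the 2 with higher TE. The red genes lie between -2.71 and -0.65 on the RPF axis and between -0.36 and 1.67 on the mRNA axis, while both blue genes lie far to the left.

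RPF was lower for every gene whose TE fell. All 44 genes were also called lower in RPF, and in all 44 every Torin1 RPF library lay below every WT RPF library, an arrangement found in 19.2% of the kept genes. Their median log2 change was -1.77 in RPF and 0.27 in mRNA. In mRNA the Torin1 and WT libraries overlapped for 34 of the 44, and in 9 every Torin1 library lay above every WT library, as in 4.57% of the kept genes. The mRNA change was above 0 in 37 of the 44 and in 698 of all 1421. TE is computed from these same RPF and mRNA libraries, so these counts describe where the TE change lies and are not separate evidence for it. Over the 6 RPF libraries alone, 140 kept genes fell (9.85%) and 72 rose (5.07%) under Torin1. RPF libraries with the same replicate number deviated together, and with the replicate number as a block 202 fell and 170 rose, with all 44 among those that fell. Without WT replicate 1, WT replicate 3 or Torin1 replicate 3, RPF calls numbered 129, 141 and 131 in all. Over the 6 mRNA libraries, edgeR called 0 of 1421 genes (0%), with 72 at an unadjusted p under 0.05 and a smallest adjusted p of 0.30; DESeq2 called 5.

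The elongation factors carry aminoacyl-tRNA to the ribosome and move it along the mRNA, and among them Eef1a1 and Eef2 held the smallest p-values of the comparison. Eef1a1, which delivers aminoacyl-tRNA, had 2153, 2037 and 2114 RPF CPM (counts relative to the library total over the kept genes, TMM-scaled within the assay) in the Torin1 libraries, against 13340, 15530 and 12260 in the WT libraries. Its mRNA was at 14860, 22700 and 21140 CPM in Torin1 and 14120, 16140 and 16990 CPM in WT. The RPF groups were far apart with little spread within each, and the mRNA groups overlapped. TE of Eef1a1 was 8.11 times lower under Torin1 (log2 -3.02 ± 0.29 SE, edgeR adjusted p = 1.99e-05). Eef2, the translocase, had 1845, 2276 and 2297 RPF CPM in Torin1 and 8088, 12900 and 8247 in WT, while its mRNA stood at 9454, 14240 and 11950 CPM in Torin1 and 8393, 5586 and 8071 CPM in WT. Every Torin1 mRNA library of Eef2 was above every WT library, the opposite order to RPF, and its TE change was -2.88 ± 0.37 (SE, edgeR adjusted p = 0.000419). Eef1g and Eef1b2, subunits of the complex that reloads eEF1A with GTP, fell by 2.12 and 2.37 on the log2 scale. Eef1d, another subunit of that complex, had a TE change of -0.62 that did not pass and turned to 0.18 without Torin1 mRNA replicate 2, although its RPF fell by 0.78. Eef2k, the kinase that inhibits eEF2, had higher RPF in every Torin1 library (118, 163 and 121 CPM) than in any WT library (63.8, 37.4 and 72.4 CPM). In edgeR without the replicate block it did not pass in RPF (adjusted p = 0.057) or in TE (0.98, adjusted p = 0.887). Eif5a, listed here for its role in elongation, had a TE change of -1.64 that did not pass.

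**Figure D2:**
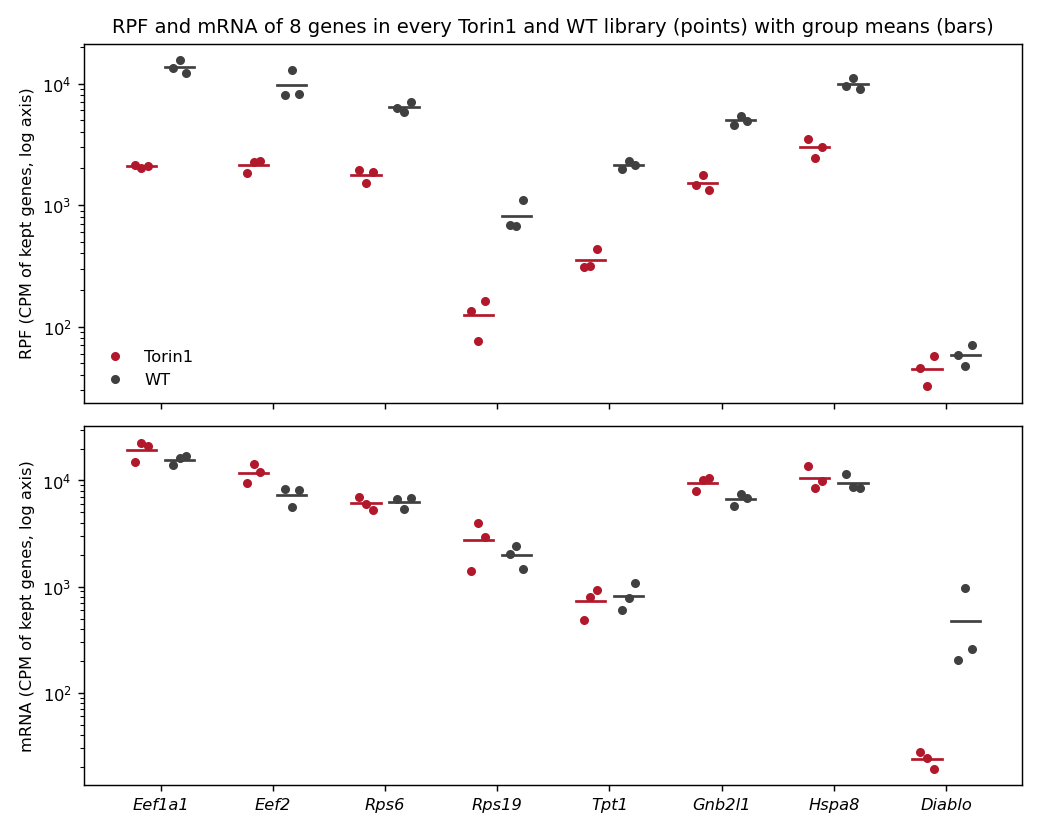
RPF (upper panel) and mRNA (lower panel) of 8 genes in each Torin1 (red, left) and WT (grey, right) library, in CPM of the kept genes on log axes; points are libraries and bars are means of 3. For the 7 genes with lower TE the Torin1 RPF points lie below the WT points, and for Diablo the difference is in mRNA.

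Of 83 listed ribosomal proteins 77 were kept, and 31 fell in TE, beside 3.1% of all kept genes: 15 of 45 from the large subunit and 16 of 32 from the small subunit. The TE change was below 0 in 76 of the 77, with a median of -1.61, and in 686 of all 1421 kept genes. Library by library, the median of the 77 genes relative to the WT mean of the same assay was -1.59, -1.86 and -1.62 (log2) in the Torin1 RPF libraries and 0.03, -0.13 and 0.14 in the WT RPF libraries. In mRNA it was 0.01, 0.12 and 0.03 in the Torin1 libraries and -0.10, 0.20 and -0.06 in the WT libraries. The RPF of the group was thus lower by a like amount in each Torin1 library, and its mRNA stayed within the range of the WT libraries. In RPF, tested without the replicate block, 73 of the 77 fell, beside 9.85% of all kept genes. The others, named after their values were seen, were Rpl41, Rpl29, Rpl38 and Rps27l, whose RPF changes were -1.07, -0.86, -0.70 and -0.13. Rps27l, a paralog of Rps27, was the 1 member with a TE change above 0 (0.70 ± 0.85 SE, not called).

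The small-subunit proteins had a median TE change of -1.81 and the large-subunit proteins one of -1.56. Rps19, a protein of the small-subunit head, had the lowest called value of all genes (log2 -3.20 ± 0.60 SE, edgeR adjusted p = 0.00552). Its RPF was 134, 75.6 and 164 CPM in Torin1 and 681, 668 and 1099 CPM in WT, and its mRNA 1394, 3959 and 2926 CPM in Torin1 and 2044, 2411 and 1453 CPM in WT. Rps6, the substrate of S6 kinase whose phosphorylation is a common readout of mTOR activity, had 1926, 1530 and 1866 RPF CPM in Torin1 and 6266, 5844 and 7086 in WT. Its mRNA was nearly level, at 6980, 5954 and 5288 CPM in Torin1 and 6660, 5354 and 6766 CPM in WT, and its TE change was -1.81 ± 0.32 (SE, adjusted p = 0.00476). Rps18 fell by 2.44, and Rpsa fell by 2.43. In the large subunit the lowest called values were those of Rplp2, a stalk protein, at -2.95, Rpl24 at -2.87 and Rpl37 at -2.47. For Rplp2 and Rpl24 part of the TE change was a higher mRNA estimate in Torin1 (log2 1.19 and 1.01, neither called), with RPF lower by 1.76 and 1.87 on the log2 scale. Rpl10a was just outside the threshold (-1.75, adjusted p = 0.0539). Reads placed at more than 1 site are not in the gene counts, and they made up 22.2% to 35.02% of counted lines in these RPF libraries and 49.3% to 75.1% in these mRNA libraries, so genes with near-identical copies or pseudogenes, among them the ribosomal proteins, Eef1a1, Tpt1 and Gapdh, are uncertain in level.

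Near the annotated transcription starts of some of these genes lies a C followed by a run of pyrimidines, the kind of sequence with which a TOP mRNA starts. The lines below give 30 bases of the transcribed strand from RefSeq (GRCm38.p6), the 15 before the annotated start and the first 15 of the transcript, for 5 called genes chosen because the tract is there and for Eef2 and Tpt1, chosen because the annotated start shows none. Capitals mark a C followed by at least 4 pyrimidines that begins within 10 bases of the start, on either side. In the 5 genes with a tract it begins at -6 to -1 from the annotated start, not at the start itself.
Eef1a1, chr9:78481710-78481739, minus strand: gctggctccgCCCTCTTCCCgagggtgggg
Rps18, chr17:33955651-33955680, minus strand: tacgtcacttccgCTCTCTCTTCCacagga
Rps6, chr4:86857353-86857382, minus strand: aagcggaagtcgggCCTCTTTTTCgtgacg
Rplp2, chr7:141447636-141447665, plus strand: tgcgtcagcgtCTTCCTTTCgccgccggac
Gnb2l1 (Rack1 in RefSeq), chr11:48800345-48800374, plus strand: cggaggccgCTCTTTCTTTTTCTCCacagg
Eef2, chr10:81176616-81176645, plus strand: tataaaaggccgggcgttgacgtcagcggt
Tpt1, chr14:75845241-75845270, plus strand: gtcaccgctgacgacagttccgggggagcc
Of the kept genes 1159 had such a window, searched on the transcribed strand only, with a gene counted when any of its annotated starts held the tract. A tract of at least 5 bases was found in 17 of the 34 matched genes with lower TE (50%, 95% Wilson interval 34.1% to 65.9%), in 38.2% of the 1124 uncalled genes, in 59.6% of 57 ribosomal proteins and in 34.4% of all 27025 symbols with a start window. At 7 bases or more the shares were 41.2% (14 of 34) in genes with lower TE, 16.6% in uncalled genes and 14.1% in all symbols. Ribosomal proteins not called in TE held the longer tract about as often (48.5% of 33). A match is a description of annotated letters; annotated starts can lie some bases from the start in use, and no match says nothing about the transcript in these cells.

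Other mRNAs listed as TOP mRNAs moved less evenly. Of 22 kept members 3 fell, 18 had a TE change below 0, and the median was -1.09. Over all 1421 kept genes 3.1% fell and 686 were below 0. Gnb2l1, which encodes RACK1, had 1470, 1778 and 1322 RPF CPM in Torin1 and 4564, 5389 and 4947 in WT, with a TE change of -2.21 ± 0.32 (SE, adjusted p = 0.00161). Tpt1, the translationally controlled tumour protein, had 312, 313 and 435 RPF CPM in Torin1 and 1999, 2312 and 2142 in WT, with mRNA at 482, 803 and 931 CPM in Torin1 and 606, 786 and 1076 CPM in WT. The groups were separate in RPF and overlapped in mRNA, and TE of Tpt1 was 5.47 times lower under Torin1. Vim fell by less, 1.23 on the log2 scale, and about as much of this was mRNA (0.57, not called) as RPF (-0.65). Pabpc1, the poly(A)-binding protein, fell in RPF by 2.39, at 164, 122 and 161 CPM in Torin1 and 745, 891 and 709 CPM in WT, but its mRNA was spread from 259 to 543 CPM in Torin1 and from 375 to 772 CPM in WT, and its TE change of -1.72 ± 0.68 (SE) did not pass. Npm1, a nucleolar chaperone of ribosome assembly, and Slc25a5, the ADP/ATP carrier, had TE changes of -1.43 and -1.58 that did not pass, with RPF falls of 0.89 and 1.27. Eif4b, an initiation factor that S6 kinase phosphorylates, was at -1.95 (adjusted p = 0.216) with overlapping RPF. Gas5, a noncoding RNA that carries a TOP tract, had the highest value of the list (1.48 ± 1.101 SE) and RPF of 848, 6670 and 3150 CPM in Torin1 and 578, 1316 and 2440 CPM in WT, a spread wider than the difference.

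**Figure D3:**
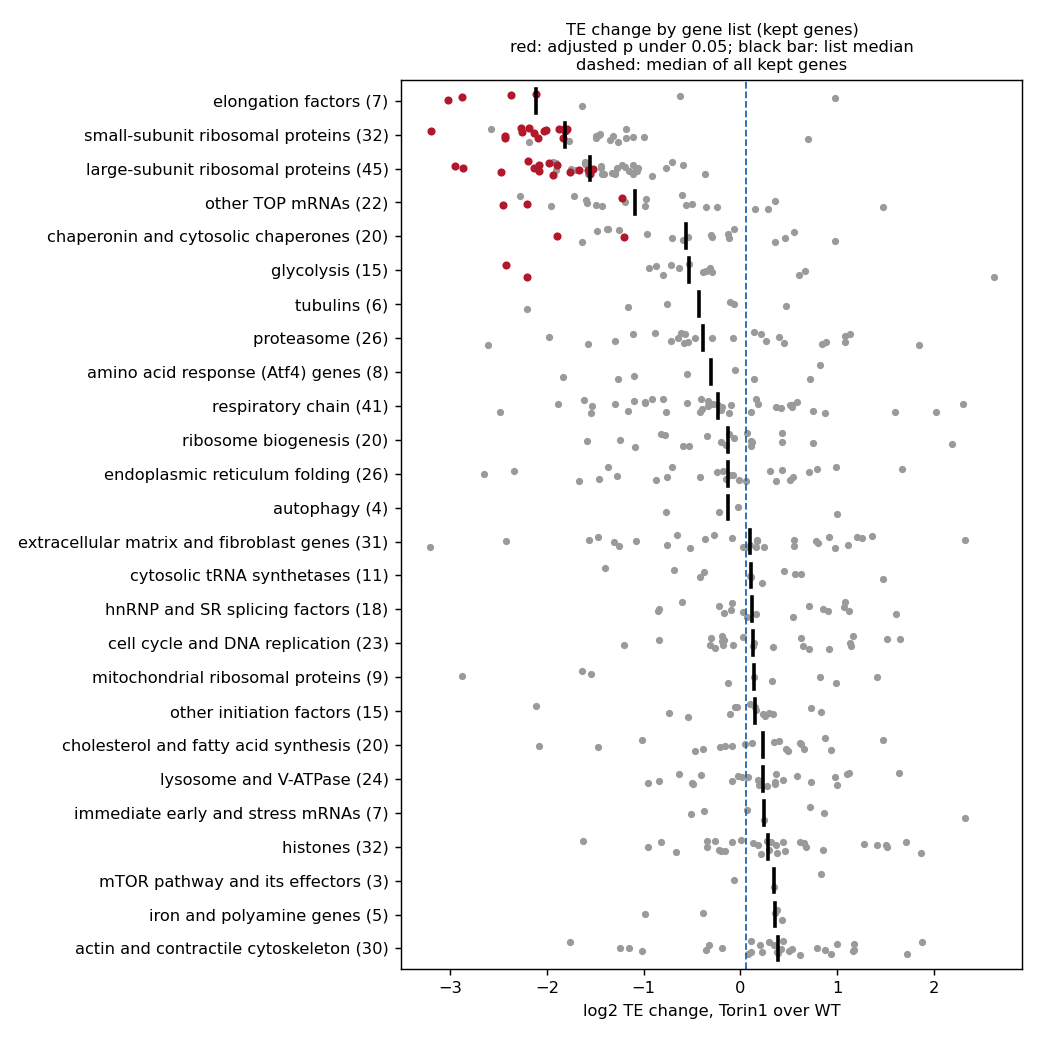
Log2 TE change (Torin1 over WT) of the kept members of 26 gene lists, each point 1 gene; red points passed an adjusted p of 0.05, black bars are list medians, the dashed line is the median of all kept genes, and the number of kept genes follows each name. Elongation factors, both ribosomal subunits and other TOP mRNAs have the lowest medians, and the medians of the other lists lie between -0.56 and 0.39.

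Of the other lists, 2 had a called member. Among 20 chaperones and chaperonin subunits, Hspa8 and Hsp90ab1 fell and the median was -0.56. Hspa8, the constitutive cytosolic HSP70, had 3529, 2423 and 2994 RPF CPM in Torin1 and 9590, 11200 and 9054 in WT, while its mRNA overlapped, at 13680, 8472 and 9809 CPM in Torin1 and 11450, 8715 and 8525 CPM in WT; its TE change was -1.89 ± 0.34 (SE, adjusted p = 0.00499). Hsp90ab1 fell by 1.20, and the chaperonin subunits Cct2 and Cct7, at -1.64 and -1.38, did not pass. Among 15 glycolytic genes the median was -0.53. Gapdh had RPF of 1484, 878 and 858 CPM in Torin1 and 4248, 3840 and 2869 CPM in WT, and its TE fell by 2.20. Gpi1, the glucose phosphate isomerase, fell by 2.42, of which mRNA was the larger share: 637, 838 and 1786 CPM in Torin1, all above 356, 322 and 346 CPM in WT, beside an RPF fall of 0.75. Vdac1 was alike, with mRNA of 573, 1248 and 758 CPM in Torin1 and 223, 389 and 286 CPM in WT and an RPF fall of 0.91. Neither mRNA change was called in the mRNA comparison. Ldha, the enzyme that makes lactate, had a TE change of -0.29, with RPF and mRNA both lower in every Torin1 library than in any WT library. Actb, cytoplasmic beta-actin, had a TE change of -0.33 ± 0.32 (SE), and Actg1, the other cytoplasmic actin, one of -1.24 that did not pass (adjusted p = 0.0764) with an RPF fall of 1.28.

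No gene was called in TE in the remaining 20 lists. Their medians ran from -0.43 (tubulins, 6 kept genes) to 0.39 (actin and contractile genes, 30 kept genes). Initiation factors outside the TOP list had a median of 0.15 over 15 genes; Eif3i was the lowest, at -2.11 (adjusted p = 0.0568). The median was -0.38 for 26 proteasome subunits, -0.23 for 41 genes of the respiratory chain, 0.11 for 11 tRNA synthetases, -0.13 for 20 ribosome biogenesis genes and 0.13 for 23 cell cycle genes. Of 78 mitochondrial ribosomal proteins 9 were kept, with a median of 0.14, in contrast to -1.61 for the cytosolic ribosome; the difference was not tested. Atf4, the amino acid response factor, had a TE change of 0.83 ± 0.80 (SE), with RPF of 77.3, 143 and 122 CPM in Torin1 and 217, 148 and 287 CPM in WT and mRNA of 157, 134 and 178 CPM in Torin1 and 678, 322 and 584 CPM in WT. Both its RPF and its mRNA were lower in every Torin1 library, and none of its changes passed.

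Both genes with higher TE differed in mRNA more than in RPF. Diablo, a mitochondrial protein that antagonises inhibitors of apoptosis, had 27.6, 24.5 and 19.3 mRNA CPM in Torin1 and 204, 967 and 256 in WT, with RPF of 45.5, 32.4 and 56.8 CPM in Torin1 and 58.8, 47.8 and 70.0 CPM in WT. Its RPF groups overlapped, and its TE change was 3.93 ± 1.03 (SE, adjusted p = 0.0469). Puf60, a splicing factor, had 84.4, 229 and 53.3 mRNA CPM in Torin1 and 651, 1014 and 704 in WT, a TE change of 3.00 ± 0.79 (SE, adjusted p = 0.0473) and an RPF change of 0.31. Cbx5, the heterochromatin protein HP1 alpha, came next by p and did not pass (3.17, adjusted p = 0.0518), also with mRNA lower in every Torin1 library. None of the 3 mRNA changes was called in the mRNA comparison, and neither TE call remained without Torin1 mRNA replicate 3 (adjusted p = 0.0761 for Diablo and 0.0674 for Puf60).

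Of the 72 genes whose RPF rose under Torin1 in the fit without the replicate block none was called in TE. A TE change above 0 was found in 60 of them and in 735 of all 1421, and the RPF libraries that chose them are part of TE. Fn1, the extracellular matrix protein fibronectin, had 13240, 24030 and 24130 RPF CPM in Torin1 and 7995, 13010 and 9061 in WT, an RPF rise of 1.03 and a TE change of 0.80 (adjusted p = 0.393). Fgfr1, a growth factor receptor, had 981, 1746 and 1293 RPF CPM in Torin1 and 498, 379 and 412 in WT, an RPF rise of 1.64, and mRNA that was spread over 263 to 926 CPM in Torin1 and 88.5 to 803 CPM in WT. Klhl24, of the kelch-like family, rose in RPF by 2.39, with 191, 381 and 161 CPM in Torin1 and 32.5, 42.8 and 65.0 in WT. These genes were chosen after their values were seen. Of the 140 genes with lower RPF 44 were called in TE.

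How precisely TE was measured differed with abundance, and the libraries spread more widely in mRNA than in RPF. The biological coefficient of variation had a median of 0.252 among RPF libraries and 0.793 among mRNA libraries. In the TE fit, which took both assays together, its median was 0.57. The median standard error of the log2 TE change was 0.94 over all kept genes and 0.42 over the 44. Divided into 4 groups of about equal size by mean mRNA level, the most abundant group (506 to 17400 CPM) had a median standard error of 0.575 and 43 of the 44 genes with lower TE; the least abundant group (25.6 to 148 CPM) had one of 1.21 and none of them. The most abundant group also held 89 of the 106 translation and TOP genes; without these its median TE change was -0.01. Col5a1, a collagen chain, is an example of low precision: its TE change of -3.21 ± 1.17 (SE) was about as large as that of Rps19 and did not pass, with mRNA of 396, 370 and 257 CPM in Torin1 libraries and 15.1, 7.25 and 101 CPM in WT libraries.

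Without Torin1 mRNA replicate 3, 37 genes fell in TE (2.6%) and none rose (0%; 192 had an unadjusted p under 0.05, and DESeq2 called 18 higher). Of the 44 genes, 36 were called again by edgeR and 8 were not, and 1 gene was added. The number called lower from these libraries depended on the tool: 63 with DESeq2, 10 with limma-voom and 1 with limma-voom with weights by assay. All 46 called genes kept their sign, the 44 ran from -3.30 to -1.23, and the largest adjusted p among them was 0.0722. Eef1a1 was at -2.97 (adjusted p = 0.000282) and Eef2 at -2.88 (adjusted p = 0.00297). The medians of the lists were -1.45 for the large subunit, -1.89 for the small subunit, -2.08 for the elongation factors and -0.99 for other TOP mRNAs. The 8 that lost the call were the ribosomal proteins Rps16, Rpl27a, Rpl3, Rpl21 and Rpl4, and also Vim, Gapdh and Hsp90ab1. Their edgeR adjusted p was, in that order, 0.053, 0.053, 0.0675, 0.0675, 0.0699, 0.053, 0.053 and 0.0722. In the large subunit 11 proteins were called, against 15 from all 12 libraries. Gpi1, whose mRNA was highest in the omitted library, moved to -1.87 and stayed called.

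**Figure D4:**
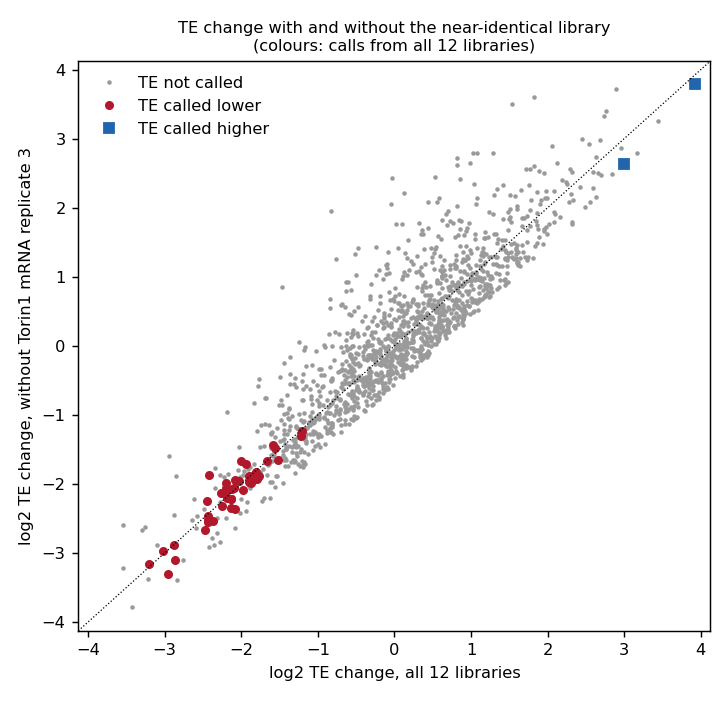
Log2 TE change (Torin1 over WT) of the 1421 kept genes from all 12 libraries (horizontal axis) and without Torin1 mRNA replicate 3 (vertical axis); red circles and blue squares mark genes called lower and higher from all 12, and the dotted line marks equality. The red genes lie near the line, between -3.30 and -1.23 on the vertical axis, and unmarked genes scatter more widely.

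**Figure D5:**
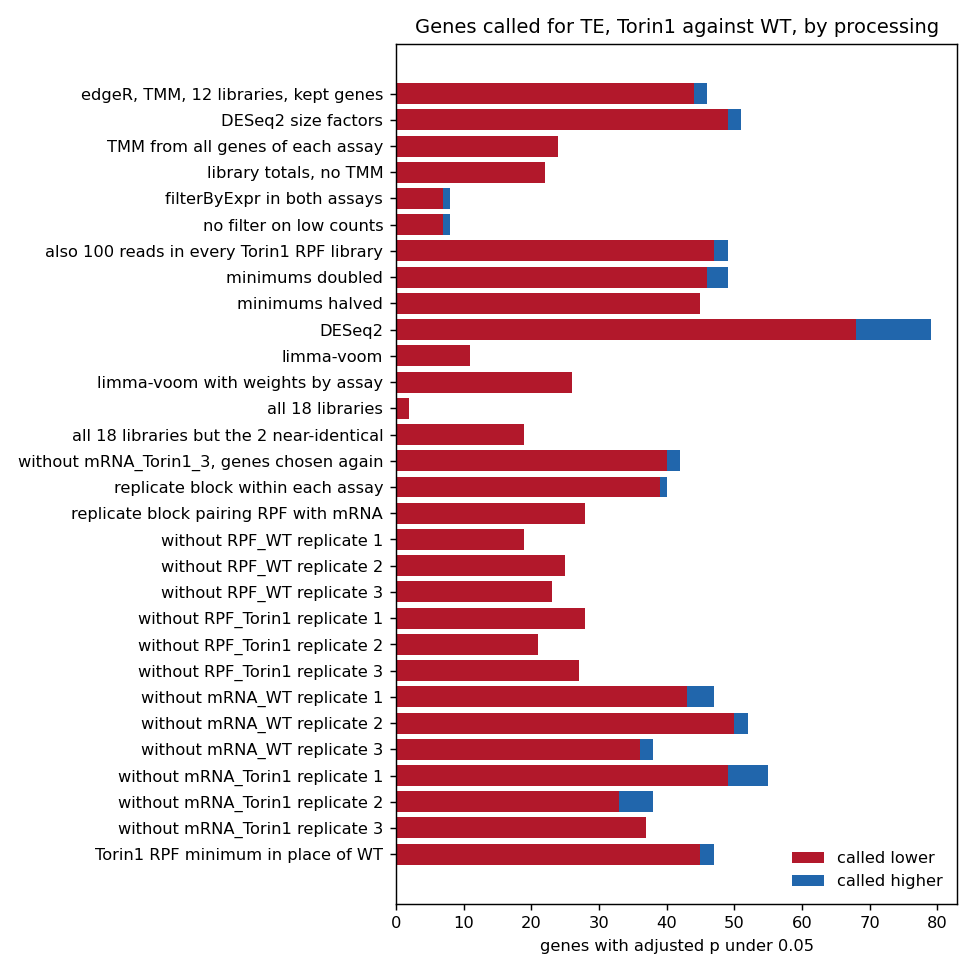
Number of genes called lower (red) and higher (blue) in TE, Torin1 against WT, under each way of scaling, filtering, testing or leaving out libraries, as bars from 0. Bars run from 2 genes, with all 18 libraries, to 79, with DESeq2.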

How the data were processed

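Ribosome-protected fragments were made with RNase I and mRNA was fragmented by heat, and both were cloned with a small-RNA kit, per the labels' protocols. The authors deposited whole-number counts of reads per gene, 1 file per library, without normalization. Bowtie 1.1.2, TopHat2 2.1.1, HTSeq and the build mm10 are named in the submitters' processing notes; the sources used here do not give settings or use of strand, so reads of overlapping and antisense genes cannot be told apart. In each file 27 lines bearing dates in place of symbols and the 5 summary lines of the counter were left out.

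Counts were tested with edgeR 4.0.16 (glmQLFit and glmQLFTest, R 4.3.3) on 4 group means, with TMM factors within each assay computed on the kept genes, and Benjamini-Hochberg adjustment over all 1421. The TE fit estimated the spread of each gene over its RPF and mRNA libraries together. Its standard errors and p-values therefore rest on a spread blended from both assays. Scaling within each assay cannot show a loss of translation shared by all mRNAs. DESeq2 1.42.0 and limma-voom (limma 3.58.1) served as alternatives. The fits were also run on simulated counts with the spread fixed within each assay and no replicate effect. The outcome of that run is not reported here. Standard errors and p-values reflect the spread among libraries. The standard errors were derived from the edgeR test, as the absolute log2 change divided by the square root of its F statistic. The Wilson interval is over genes. No molecular identifiers are mentioned, so copies made by PCR count as reads.

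Same-numbered Torin1 and WT RPF libraries deviated together (r of their deviations from group means 0.275, 0.301 and 0.229), which pairs them; the number comes from the labels. Same-numbered mRNA libraries did not (0.03, -0.01 and 0.05), and TE was tested without the block. RPF changes and calls are also from the fit without the block, except where the block is named.

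Members and lists were chosen with earlier results of these data known, so lists are given as counts and medians with no test. Genes named were the 12 lowest called TE changes, the 3 smallest p in the higher direction, in each list up to 4 with the smallest p, and a fixed set of genes; a selection of them is printed, and genes outside the rule (Klhl24, Fgfr1, Fn1, Gas5, Eef2k, Eif5a, Ybx1 and the ribosomal proteins not called in RPF) were chosen after their values were seen. Sequences are from RefSeq.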

Additional observations from a re-analysis of the deposited data

How the results depend on the processing

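Every called gene kept its direction under all alternatives run, and Eef1a1 and Eef2 kept their calls under all 29. Other calls were less stable: Tpt1 kept its call in 19, Vim in 11, Hsp90ab1 in 9, Puf60 in 7 and Diablo in 6. The called ribosomal proteins ranged from 28 (Rps18) to 9 (Rpl21). Rpl3 kept its call in 14, Rpl24 and Rps21 in 13, and Fau, Rpl5, Rpl27a, Rpl36, Rpl37, Rps12 and Rps16 in 12. Rpl4, Rpl13 and Rpl17 kept theirs in 11, and the other called ribosomal proteins in 18 or more. From 12 libraries 46 genes were called in TE; the number called became 24 with TMM from all genes of an assay, 22 with library totals, 8 with filterByExpr (5909 genes) and 8 with no filter (9987 genes), where adjustment ran over more genes. It became 79 with DESeq2, 11 with limma-voom, 26 with weights by assay, 2 with all 18 libraries and 19 without the near-identical pair. Leaving out 1 library gave 19 to 55. A replicate block within each assay gave 40 and a block pairing RPF with mRNA 28. Deviations from group means of same-numbered RPF and mRNA libraries correlated at 0.004 to 0.11, so the labels' numbers are not taken to pair them. Without Torin1 mRNA replicate 3, DESeq2 called 81, limma-voom 10 and limma-voom with weights by assay 1, against 37 (chosen after seeing the data). RPF calls went to 138 with filterByExpr, 372 with the replicate block and 129 to 200 with 1 library left out, against 212; mRNA calls to 5 with DESeq2, 2 with filterByExpr and 0 to 2 with 1 library left out, against 0. The cause of these differences was not tested. The scalings moved the median of all genes to -0.11 (TMM from all genes) and 0.22 (library totals), against 0.05. The elongation factor median was -1.94 with library totals, and the share of genes with lower TE that held a tract was 70.6% within 20 bases of the start, where 53.3% of all symbols held one. TE of Eef1d, not called, ran from -0.95 to 0.18 with 1 library left out and reversed only without Torin1 mRNA replicate 2. The read minimums limited the comparison to genes with abundant mRNA reads: TE of a gene outside the 1421 is not given here.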
